A study of Mus musculus with 12 samples.

Results

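The hypothalamus was compared with the hippocampus over all transcript probes of an array, using 6 of the 12 scans of the series, 3 from each region. Both regions were dissected from male BALB/c mice aged 10 weeks, and the labels name no treatment or altered gene, so brain region is the only difference between the groups that they name. All scans of a region lay at the same slide position, another for each region, so region and slide position cannot be told apart. The study profiled long noncoding RNAs and mRNAs in 4 brain regions, the other two being the olfactory bulb and the cerebellum. Its text gives 3 mice for the arrays, but the labels do not tie an array to an animal. All p-values therefore measure the spread between arrays of a region, which may be technical in part. Unless stated otherwise, that spread is shared over the arrays of all 4 regions. The RNA was depleted of ribosomal RNA, labelled with Cy3 by random priming along the transcript, and read on 1-colour Arraystar mouse arrays.

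The hypothalamus lies at the base of the brain and holds many small groups of neurons that release peptides and hormones. It governs feeding, body temperature, water balance, stress responses and, through the pituitary, the endocrine glands. The hippocampus is a folded sheet of cortex, built mainly of layers of excitatory pyramidal and granule neurons joined by local inhibitory neurons, and serves spatial and episodic memory. Both also contain astrocytes, oligodendrocytes, microglia and vessel cells, and a tissue sample measures their sum. In such samples, fewer cells of a type and less RNA per cell cannot be told apart.

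Scans 1 and 3 of the hippocampus were nearly identical. Their log2 signals of bright probes differed with an SD of 0.0279, and they shared 35 spots marked as non-uniform. Each of them differed from scan 2 with an SD of 0.449 to 0.452, and the hypothalamus scans differed from each other with SDs of 0.315 to 0.416. Scans 1 and 3 were therefore averaged and counted as 1 sample, called hippocampus array 1, so that 3 hypothalamus arrays stood against 2 hippocampus arrays. Of 60915 probes, 90.12% to 92.29% were well above background on a hypothalamus scan and 87.87% to 90.82% on a hippocampus scan, and 0 were saturated. Median processed signals were 290.7 to 307.8 intensity units in the hypothalamus and 316.5 to 334.7 in the hippocampus. Across probes, each of the 5 had its closest correlation with an array of its own region (r 0.976 to 0.992, against at most 0.973 with an array of the other region). With so few arrays, their number sets the precision of every value below.

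The regional labels could not be checked against peptide, transcription factor or cell type markers. The files give a gene for 15 probe sets only, each spotted 20 times, and many of these are widely used reference genes. Of 384 genes in 20 lists of regional, cell type and pathway genes, 15 had a probe that names them, and 0 of these were in a list of regional or cell type markers. All other tested probes carry array-design numbers or lincRNA names, so most of the results below name probes and not genes.

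Levels are given as log2 of the processed signal relative to the 75th percentile on the same array, so that 0 is that percentile and 1 unit is a doubling. Differences are hypothalamus minus hippocampus on that scale. A probe was called different at an adjusted p under 0.05 (limma, Benjamini-Hochberg over all probes tested) with a difference of at least 2-fold.

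The regions shared most of their profile and differed strongly in a small part of it. Of 56573 probes tested, 3620 were called different (6.4%), 2147 of them higher in the hypothalamus (3.8%) and 1473 higher in the hippocampus (2.6%). At any fold, 9586 probes passed the adjusted p (16.9%), 6246 higher in the hypothalamus (11.0%) and 3340 higher in the hippocampus (5.9%). Across all tested probes the means of the regions correlated with r = 0.974, a description across probes, which are not independent. The median difference was 0.03, and the middle of the distribution, from the lower to the upper quartile, ran from -0.20 to 0.29.

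**Figure D1:**
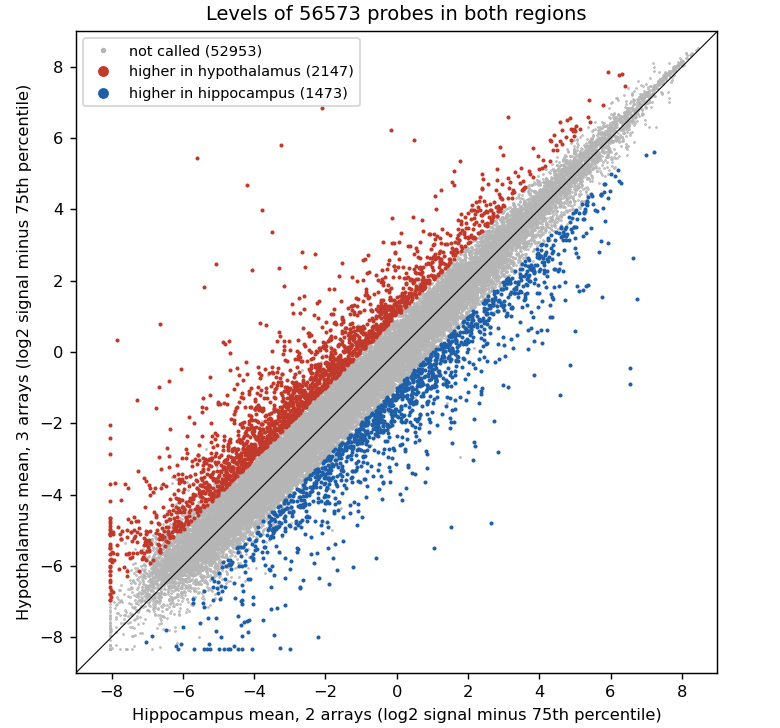
Mean level of each tested probe in the hippocampus (x axis, 2 arrays) and the hypothalamus (y axis, 3 arrays), as log2 signal minus the 75th percentile of the array, with the line of equal levels. The 2147 probes called higher in the hypothalamus lie above the line and the 1473 called higher in the hippocampus below it, and the short straight rows of points at the left and lower edges are probes at the lowest signal of an array.

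The plot of mean levels shows differences of every size on both sides of the line. At least 4-fold differences were called for 506 probes higher in the hypothalamus and 371 higher in the hippocampus. The numbers were 147 and 133 at 8-fold, 46 and 34 at 16-fold, 29 and 14 at 32-fold, and 14 and 5 at 64-fold. A difference of at least 256-fold was called for 6 probes, all higher in the hypothalamus. These counts use measured folds and include probes that were not above background in the lower region, which are treated separately below. At the other end, the called probe of smallest difference was ASMM10P028890 on the hypothalamus side (1.0, SE 0.20) and ASMM10P056932 on the hippocampus side (-1.0, SE 0.12).

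Arrays 1 of both regions were scanned together, and so were arrays 2, whereas hypothalamus array 3 and the repeat scan averaged into hippocampus array 1 each had another scan time. Between arrays 1 alone, the hypothalamus exceeded the hippocampus at least 2-fold in 2354 probes and fell short of it in 2149. Between arrays 2 alone the numbers were 2904 and 2580. Both comparisons thus leaned to the hypothalamus, without any test, by less than the calls did. With the replicate number as a block in the fit, which follows scan time apart from the repeat scans, 2225 and 1553 probes were called. The share of called probes that were higher in the hypothalamus was 59.3%. It was 65.7% without hippocampus array 1 and 52.8% without hippocampus array 2, so the balance of directions moved with single hippocampus arrays. Under normexp, another background correction, the numbers called were 1388 and 1120 (hypothalamus first).

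The lean to the hypothalamus was present among dim probes and absent among bright ones, as the plot of calls by signal level shows. The tested probes were divided by mean level into 4 bins of equal size. In the dimmest bin, 4.26% were called higher in the hypothalamus and 1.72% in the hippocampus. In the second bin the shares were 3.73% and 1.98%, and in the third 3.40% and 2.86%. In the brightest bin they were 3.78% and 3.85%, so that 49.5% of the bright calls and 71.3% of the dim ones were higher in the hypothalamus. The share in the dimmest bin was 63.8% with quantile normalization, 77.9% without hippocampus array 1 and 65.6% without hippocampus array 2. In the brightest bin the last 2 settings gave 54.9% and 43.4%. Of the tested probes, 548 stood at the lowest signal of hippocampus array 2, 102 at that of hippocampus array 1, and 56 to 261 at that of a hypothalamus array. The part of these probes in the dim calls was not tested.

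**Figure D2:**
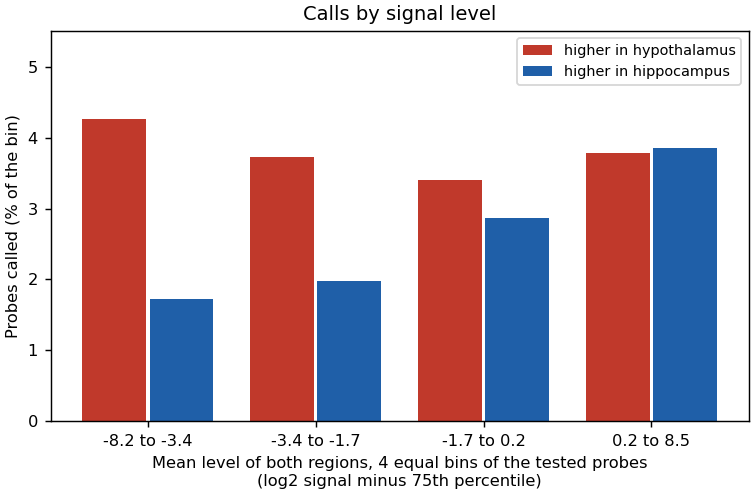
Share of the tested probes called higher in each region (y axis, percent), in 4 equal bins of the mean level of both regions (x axis, log2 signal minus 75th percentile). The share called higher in the hippocampus rises from 1.72% to 3.85% with level, and the share called higher in the hypothalamus lies between 3.40% and 4.26% in every bin.

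The 8 array-design probes of largest difference on each side were described in full, among called probes well above background on all 6 scans. ASMM10P044801 stood at 5.42, 5.42 and 5.48 on hypothalamus arrays 1, 2 and 3 and at -5.75 and -5.46 on hippocampus arrays 1 and 2. Every hypothalamus array was thus high and every hippocampus array near the dim end of the scale. The difference was 11.05 (SE 0.13, limma adjusted p 3.35e-08), or 2114-fold, with 11.17 between arrays 1 and 10.88 between arrays 2. In the olfactory bulb the probe was as dim as in the hippocampus, at -5.54 ± 0.11 (SD, n = 3), and in the cerebellum it stood at the lowest signal of both arrays.

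ASMM10P047574 read 7.39, 7.30 and 7.36 in the hypothalamus, against -2.03 and -1.75 in the hippocampus. The difference was 9.24 (SE 0.28), or 606-fold. The olfactory bulb (-2.05 ± 0.56, SD, n = 3) and the cerebellum (-1.92 ± 0.02, SD, n = 2) lay at the hippocampal level, so the hypothalamus alone stood high. ASMM10P021540 had the same shape, with 6.07, 5.68 and 5.66 in the hypothalamus and -3.01 and -3.52 in the hippocampus. Its difference was 9.06 (SE 0.21), or 536-fold. ASMM10P032896 read 4.69, 4.62 and 4.71 against -4.14 and -4.26, a difference of 8.88 (SE 0.11) or 470-fold. Both probes were dim in the other two regions as well.

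ASMM10P023789 showed how far the hippocampus arrays could part. It stood at 6.98, 6.73 and 6.81 in the hypothalamus and at -1.16 on hippocampus array 1 but -3.04 on array 2. The groups stayed far apart, and the difference of 8.94, or 490-fold, carried an SE of 0.65 (limma adjusted p 6.03e-05). Between arrays 1 it was 8.14, and between arrays 2 it was 9.76.

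The remaining 3 probes on this side differed from each other in where the other regions lay. ASMM10P046725 read 4.09, 3.91 and 3.95 in the hypothalamus and -3.70 and -3.86 in the hippocampus, a difference of 7.76 (SE 0.12) or 217-fold, with the olfactory bulb (-0.07) and the cerebellum (-0.39) in between. ASMM10P034165 read 2.52, 2.43 and 2.45 against -5.13 and -5.01, a difference of 7.53 (SE 0.16) or 185-fold. It was dim in all regions but the hypothalamus. ASMM10P004628 read 3.51, 3.28 and 3.29 against -3.28 and -3.70, a difference of 6.85 (SE 0.19) or 115-fold. Its levels were spread over all 4 regions, with 0.42 in the olfactory bulb and -7.10 in the cerebellum. All 8 differences passed limma's test with adjusted p-values from 3.35e-08 to 6.03e-05. Dim hippocampal values depend on the background correction, and under normexp the difference was 9.20 for ASMM10P044801 and 6.03 for ASMM10P034165.

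**Figure D3:**
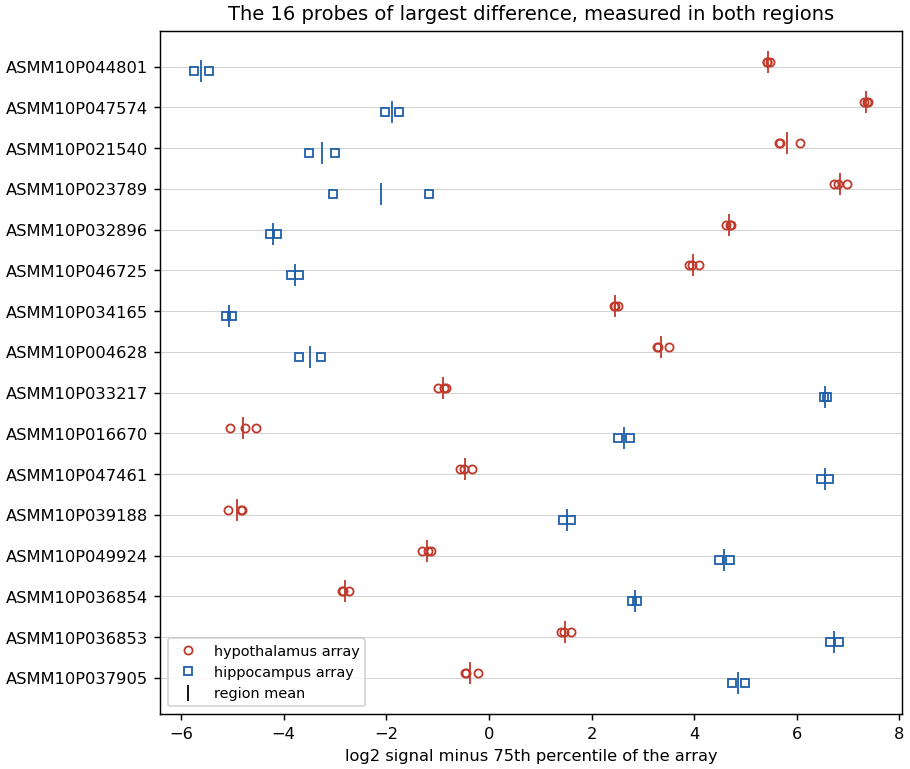
Level of each array (x axis, log2 signal minus 75th percentile) for the 8 probes of largest difference in each direction (y axis), with a line at each region mean. In all 16 probes every array of the higher region lies above every array of the other, and the hippocampus arrays of ASMM10P023789 lie farthest apart within a region.

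Rank by rank, the 8 probes on the hippocampus side had smaller differences, although the 2 sides overlapped in size. ASMM10P033217 stood at 6.58 and 6.53 on hippocampus arrays 1 and 2 and at -0.83, -0.99 and -0.87 on hypothalamus arrays 1, 2 and 3. Arrays of a region agreed closely and those of the regions did not overlap. The difference was -7.46 (SE 0.12, limma adjusted p 1.22e-07), or 175-fold, and the olfactory bulb (1.11) and the cerebellum (0.77) lay nearer the hypothalamus. ASMM10P047461 read 6.62 and 6.46 in the hippocampus, against -0.33, -0.48 and -0.57. The difference was -7.001 (SE 0.12), or 128-fold. The cerebellum stood at 6.25, near the hippocampus, and the olfactory bulb at 2.62, in between, so for this probe the hypothalamus was the lowest region.

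ASMM10P037905 likewise had the hypothalamus as the low region, at -0.21, -0.45 and -0.46. The hippocampus read 4.98 and 4.74, a difference of -5.23 (SE 0.14) or 37.6-fold, and the olfactory bulb (3.70) and the cerebellum (3.59) were close to it. ASMM10P039188 was dim in the hypothalamus (-4.83, -5.08 and -4.81) and read 1.59 and 1.45 in the hippocampus. Its difference was -6.43 (SE 0.17), or 86.0-fold. The cerebellum (-4.70) was as dim as the hypothalamus, and the olfactory bulb (-1.04) lay between. ASMM10P016670 read 2.75 and 2.52 against -4.55, -5.06 and -4.75, a difference of -7.42 or 171-fold. Its SE of 0.94 (limma adjusted p 0.00108) was the highest of the 16, although both regions compared were tight. The olfactory bulb arrays, which enter the shared estimate of the spread, stood at -6.26 ± 1.96 (SD, n = 3).

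ASMM10P049924 read 4.69 and 4.48 in the hippocampus and -1.14, -1.19 and -1.30 in the hypothalamus, a difference of -5.79 (SE 0.12) or 55.5-fold. ASMM10P036854 read 2.89 and 2.78 against -2.72, -2.85 and -2.87, and ASMM10P036853, next to it in the numbering, read 6.82 and 6.65 against 1.61, 1.40 and 1.46. Their differences were -5.65 (SE 0.12, 50.3-fold) and -5.24 (SE 0.13, 37.9-fold). This pair was among the first signs that neighbouring probe numbers can carry like differences, which is described further below.

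Probes seen in only 1 region were mostly dim. On all 3 hypothalamus scans and no hippocampus scan, 402 probes (0.711%) were well above background, and their median level in the hypothalamus was -5.41. The reverse held for 67 probes (0.118%). Of the 402 probes 177 were called different, and of the 67 probes 59, against 6.4% of all tested probes. The lowest signal of a probe well above background was -5.795 to -5.663 on hippocampus scans and -6.052 to -5.952 on hypothalamus scans. This limit thus lay higher in the hippocampus, and its part in the numbers of probes was not tested. Hippocampus scan 2 had the lowest share of probes above background, and without it the numbers were 520 and 117 (hypothalamus first). Such a difference has only a lower bound. The bound sets the mean of the bright region against, on each dim array, the higher of the probe's own signal and the lowest signal of any probe well above background there. The bound reached 2-fold for 62 of the 402 probes and 4-fold for 25, and for 45 and 15 of the 67. These counts are a description, since detection in 1 region chose the probes, and the adjusted p-values beside bounds are those of the measured values.

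The highest bounds on the hypothalamus side belonged to 4 array-design probes. ASMM10P050403 stood at 0.65, 0.77 and 0.92 in the hypothalamus and was not well above background in the hippocampus (measured -6.84 and -6.47). It was at least 91.0-fold higher in the hypothalamus (limma adjusted p 1.05e-05). ASMM10P017537 read 0.42, 0.28 and 0.32 against measured values of -7.71 and -7.99, and was at least 66.9-fold higher (adjusted p 1.42e-06). Neither was brighter than -6.49 on average in another region. ASMM10P007525 (-0.71, -0.88 and -0.83 against -6.29 and -6.47) was at least 30.3-fold higher, with an adjusted p of 2.91e-07. ASMM10P049108 (-0.88, -1.07 and -1.01 against -6.52 and -6.85) was at least 26.7-fold higher, with an adjusted p of 5.9e-07. The last of these was brighter still in the cerebellum, at 2.03 ± 0.17 (SD, n = 2).

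On the hippocampus side the 4 highest bounds were lower. ASMM10P054520 read -1.76 and -2.04 in the hippocampus and was not well above background in the hypothalamus (measured -6.41, -6.90 and -6.21). It was at least 17.2-fold higher in the hippocampus (limma adjusted p 3.34e-05). ASMM10P034652 (-2.19 and -2.18 against -6.54, -6.03 and -6.46) was at least 14.1-fold higher, with an adjusted p of 5.5e-06. ASMM10P032238 (-2.23 and -2.19 against -7.62, -8.33 and -8.07) was at least 13.9-fold higher, with an adjusted p of 8.06e-06. ASMM10P007420 (-2.52 and -2.92 against -6.24, -6.58 and -7.09) was at least 9.73-fold higher, with an adjusted p of 2.76e-05. In the cerebellum the last 3 of these were at the lowest signal of both arrays.

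The levels in the other regions placed the called probes among all 4. Of the 2147 probes higher in the hypothalamus, 1506 (70.1%) had the hypothalamus as their highest region and 1094 (51.0%) the hippocampus as their lowest. Of the 1473 probes higher in the hippocampus, 1015 (68.9%) had the hippocampus as their highest region and 681 (46.2%) the hypothalamus as their lowest. Over all tested probes the hypothalamus was highest in 22.9% and the hippocampus in 22.5%. A probe called in one direction cannot be highest in the other region, so these shares describe the called probes and are no test. The median levels of the first set were -1.0003 in the hypothalamus, -1.99 in the olfactory bulb, -2.47 in the cerebellum and -2.73 in the hippocampus. Those of the second were 0.19 in the hippocampus, -0.81 in the olfactory bulb, -1.39 in the cerebellum and -1.52 in the hypothalamus. In both sets the median of the olfactory bulb and that of the cerebellum lay between those of the regions compared.

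Of the 15 named genes, 3 passed the adjusted p, all higher in the hypothalamus, while 16.9% of all tested probes passed it at any fold in either direction. Nothing is read from 3 of 15 against that share, and 0 of the 15 reached 2-fold. At an unadjusted p under 0.05 there were 4. Their median difference was 0.14, against 0.03 over all probes. Many of the 15 genes, such as Gapdh, Actb and Hprt, are widely used as references. Some probes of the 15 may bind processed copies or close relatives of the gene, which was not checked.

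Gusb, which encodes the lysosomal enzyme beta-glucuronidase, stood at -0.41, -0.55 and -0.58 in the hypothalamus and at -1.09 and -1.24 in the hippocampus. Every hypothalamus array was above both hippocampus arrays. The difference was 0.65 (SE 0.11, limma adjusted p 0.00456), or 1.57-fold, with 0.67 between arrays 1 and 0.68 between arrays 2. Hprt, the enzyme that salvages hypoxanthine and guanine into purine nucleotides, read 6.76, 6.65 and 6.72 against 6.16 and 6.04, again without overlap. Its difference was 0.61 (SE 0.10, adjusted p 0.00374), or 1.53-fold. Tuba1b, an alpha-tubulin of microtubules whose probe may bind other alpha-tubulin transcripts, read 8.16, 8.03 and 8.11 against 7.70 and 7.57. The difference was 0.47 (SE 0.10, adjusted p 0.015), or 1.38-fold. With quantile normalization it was 0.26 and did not pass (adjusted p 0.173), nor did it in a fit of the hypothalamus and hippocampus arrays alone (0.47, adjusted p 0.0582) or without hippocampus array 2 (0.40, adjusted p 0.125), hypothalamus array 1 (0.44, 0.0531) or hypothalamus array 3 (0.46, 0.0551).

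**Figure D4:**
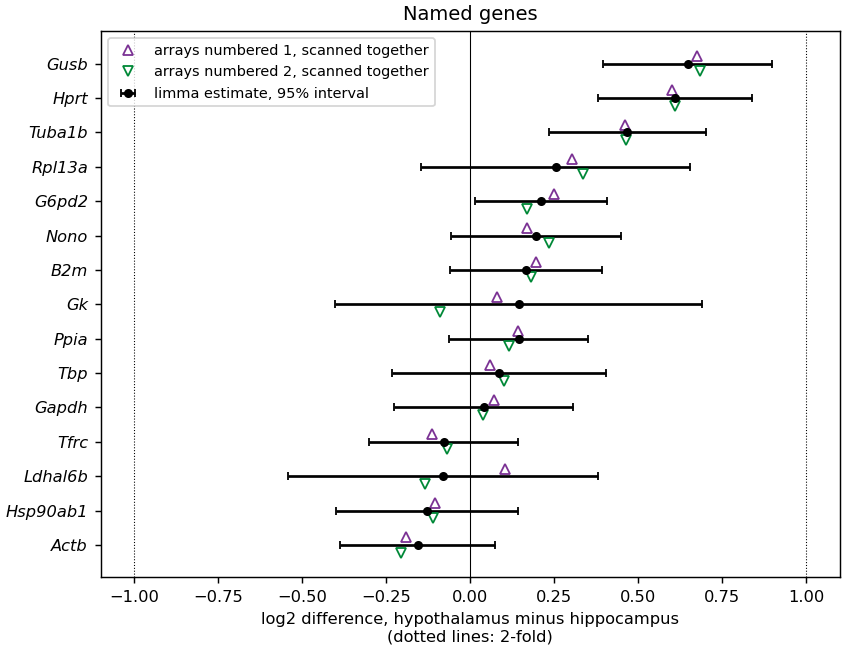
Difference between hypothalamus and hippocampus for the 15 named genes (x axis, log2), as the limma estimate with its 95% interval and as the difference between the arrays 1 and between the arrays 2 scanned together. Gusb, Hprt and Tuba1b lie at 0.47 to 0.65, all intervals stay inside the dotted lines at 2-fold, and those of the other genes except G6pd2 include 0.

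The other 12 genes did not pass the test, and every 95% interval excluded a 2-fold difference in either direction, as the plot of named genes shows. Among genes of metabolism, Gapdh of glycolysis read 7.14, 6.94 and 7.00 against 7.07 and 6.90, with an interval of -0.23 to 0.31. Gk, glycerol kinase, had one of -0.40 to 0.69. G6pd2 and Ldhal6b, relatives of glucose-6-phosphate dehydrogenase and lactate dehydrogenase, had intervals of 0.01 to 0.41 and -0.54 to 0.38. Among genes of protein synthesis and folding, the interval was -0.14 to 0.65 for the ribosomal protein gene Rpl13a, -0.06 to 0.35 for the prolyl isomerase gene Ppia and -0.40 to 0.14 for the chaperone gene Hsp90ab1.

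For Tbp, which encodes the TATA-box binding protein, the interval was -0.23 to 0.41, and for Nono, a nuclear RNA-binding protein, -0.06 to 0.45. At the cell surface, B2m, beta-2 microglobulin, had an interval of -0.06 to 0.39 and Tfrc, the transferrin receptor, one of -0.30 to 0.14. Actb, cytoplasmic beta-actin, read 4.19, 4.17 and 4.31 in the hypothalamus and 4.38 and 4.38 in the hippocampus, with an interval of -0.39 to 0.08. Its arrays did not overlap, and neither did those of 7 genes that were higher in the hypothalamus. Over all tested probes, every hypothalamus array was above every hippocampus array in 24.2% and below in 16.6%. With the replicate number as a block, 32.6% of all tested probes passed the adjusted p at any fold. So did 8 of the 15 genes, adding Rpl13a (0.31, adjusted p 0.00336), Nono (0.21, 0.0155), B2m (0.18, 0.0228) and G6pd2 (0.20, 0.0296), and Actb as lower in the hypothalamus (-0.21, 0.0139).

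Probes with lincRNA names, long intergenic noncoding RNAs catalogued in human or mouse, were seldom called. Of 1432 tested, 9 were called higher in the hypothalamus (0.63%) and 7 higher in the hippocampus (0.49%), and 1.96% passed the adjusted p at any fold. These probes were dim, with a median level of -3.26 against -1.66 over all probes. Within the 4 bins of level, 1.03%, 0.50%, 1.61% and 2.86% of them were called, from dim to bright. The array-design probes of the same bins were called in 6.23%, 5.87%, 6.35% and 7.68%. The share was thus lower for lincRNA names at every level, a difference that was not tested. Under normexp, which compresses dim differences, 2 and 4 lincRNA names were called. By class, the calls were 2 and 4 of 851 human names, 5 and 2 of 504 mouse names, and 2 and 1 of 77 names of mm9 lincRNA exons (hypothalamus first).

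Among the called lincRNA names higher in the hypothalamus, mouselincRNA1559+ read -2.66, -2.83 and -2.71 against -4.83 and -6.97. The hippocampus arrays were far apart. Only the nearly identical scans 1 and 3, averaged as hippocampus array 1, were above background there, and array 2 was not. The measured difference was 3.17 (SE 0.61, limma adjusted p 0.00917), and 1.52 under normexp. The mouselincRNA1177- probe read -2.98, -3.42 and -3.31 against -4.61 and -4.67, a difference of 1.41 (SE 0.17, adjusted p 7.18e-04) or 2.65-fold. The humanlincRNA0931- and mouselincRNA0457- probes were not above background on any hippocampus scan. The first was at least 1.34-fold higher (measured means -5.30 and -7.43, adjusted p 2.6e-04) and the second at least 1.29-fold (-5.36 and -6.93, adjusted p 0.0397). The latter call did not hold when any 1 array was left out. Of the other 5, humanlincRNA0635-, mouselincRNA0513-, mouselincRNA0538- and MM9LINCRNAEXON10136+ differed by 1.01 to 1.22, and MM9LINCRNAEXON10618+ was above background on 1 of the 6 scans.

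In the hippocampus, humanlincRNA0691+ was higher, at 2.76 and 2.84 against 1.15, 1.26 and 1.46. The difference was -1.51 (SE 0.13, adjusted p 1.53e-04), or 2.84-fold, and the probe was brighter still in the olfactory bulb (3.05) and the cerebellum (4.52). The humanlincRNA1086- probe (-2.18 and -1.65 against -3.99, -3.54 and -3.03) differed by -1.61 (SE 0.37, adjusted p 0.0206), or 3.04-fold, and the probe stood at 0.94 in the cerebellum. It did not pass without hippocampus array 2 (-1.34, adjusted p 0.161), hypothalamus array 1 (-1.37, 0.0622) or hypothalamus array 2 (-1.60, 0.0582). The humanlincRNA1172- probe (-0.83 and -0.96 against -2.03, -2.06 and -2.03) differed by -1.15 (SE 0.10, adjusted p 1.24e-04), or 2.22-fold.

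The humanlincRNA2052+ probe read 1.39 and 1.49 in the hippocampus and 0.16, 0.13 and 0.41 in the hypothalamus. It differed by -1.21 (SE 0.18, adjusted p 0.00242), or 2.31-fold. A mouse name, mouselincRNA0696+, differed by -1.12 (SE 0.15). Both probes varied together over the 10 arrays of all 4 regions (r = 0.998), so they may not be independent measurements. Their highest levels were in the cerebellum, at 3.84 and 3.72. The last 2 calls were mouselincRNA1400- (-1.09, SE 0.30) and MM9LINCRNAEXON11731- (-1.02, SE 0.14).

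Most lincRNA names come as a pair of probes, marked + and -. Both were tested for 521 names, and of the 11 with a call on either, 0 had a call on both. With so few calls (0.63% and 0.49% of the tested lincRNA names), nothing is read from that 0. Across these names the differences of the + and the - probe had r = -0.007 and their levels r = 0.03, a description across probe pairs. For humanlincRNA0691, the - probe stood at -3.45 in the hypothalamus and -3.53 in the hippocampus, with an interval of the difference of -0.78 to 0.93, whereas the + probe was called. For mouselincRNA0513 it was the - probe that was called (1.18, SE 0.13), while the + probe had an interval of -0.44 to 0.17.

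The ASMM10UP probes are a smaller class of the array design. Of 790 tested, 35 were called higher in the hypothalamus (4.43%) and 45 higher in the hippocampus (5.70%), against 3.8% and 2.6% of all probes. Under normexp the counts were 15 and 22. They were 44 and 37 without hippocampus array 1 and 26 and 44 without hippocampus array 2, so which direction held more calls rested on single hippocampus arrays. The median difference of the class was 0.01. The labels and file headers do not say what sets this class apart.

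The differences of probes with neighbouring design numbers were weakly correlated. This was noticed in the data and is given as a description. For the ASMM10P class, the difference of a probe and of the next number correlated with r = 0.131 over 50953 pairs, against 0.008 for probes 100 numbers apart. After a probe called higher in the hypothalamus, the next number was called likewise in 14.2%, against 3.93% at 100 numbers. After a probe called higher in the hippocampus these shares were 13.6% and 2.74%. In the ASMM10UP class the next number was called likewise in 24.2% (8 of 33) and 31.6% (12 of 38), against 8.0% and 5.71% at 100 numbers. These shares rest on few pairs, and the run ASMM10UP482 to ASMM10UP487, described below, is among them. The median distance of neighbouring numbers on the slide was 135 spots, as for probes 100 numbers apart (136 spots), so such probes were not printed side by side.

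Called probes of consecutive numbers formed 222 runs in the hypothalamus direction, with 513 probes, and 155 in the hippocampus direction, with 352 probes. Most were pairs (179 and 128 runs). The longest run was ASMM10P014588 to ASMM10P014599, 12 probes that were all higher in the hippocampus by 1.34 to 2.06. Their hypothalamus levels spanned 4.93 log2 units, whereas their differences spanned 0.72. Within it, ASMM10P014591 read 4.21 and 4.03 in the hippocampus and 2.30, 2.27 and 2.37 in the hypothalamus, and ASMM10P014598 read -0.80 and -1.03 against -2.27, -2.56 and -2.36. Bright and dim probes of the run thus differed by similar amounts, and in all 12 the order was hippocampus, olfactory bulb, hypothalamus, cerebellum, from high to low.

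The next longest run was ASMM10P015298 to ASMM10P015306, 9 probes higher in the hypothalamus by 1.44 to 1.83. ASMM10P015304 had the largest of these differences, with -0.32, -0.38 and -0.29 in the hypothalamus and -2.06 and -2.25 in the hippocampus (1.83, SE 0.11). In 8 of the 9 probes the order was hypothalamus, hippocampus, olfactory bulb, cerebellum, and in ASMM10P015306 the olfactory bulb (-0.65) was above the hippocampus (-0.996).

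Another stretch held the runs ASMM10P039360 to ASMM10P039365 (6 probes) and ASMM10P039369 to ASMM10P039376 (8 probes). All 14 were higher in the hypothalamus than in the hippocampus and in the order olfactory bulb, hypothalamus, hippocampus, cerebellum. Of the 3 numbers between them, ASMM10P039367 was called too (1.65), ASMM10P039366 passed the adjusted p at 0.78, and ASMM10P039368 did not pass (0.46, adjusted p 0.151). In this stretch ASMM10P039373 was among the most reproducible probes, at -0.43, -0.40 and -0.42 in the hypothalamus and -2.21 on both hippocampus arrays (1.79, SE 0.08).

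**Figure D5:**
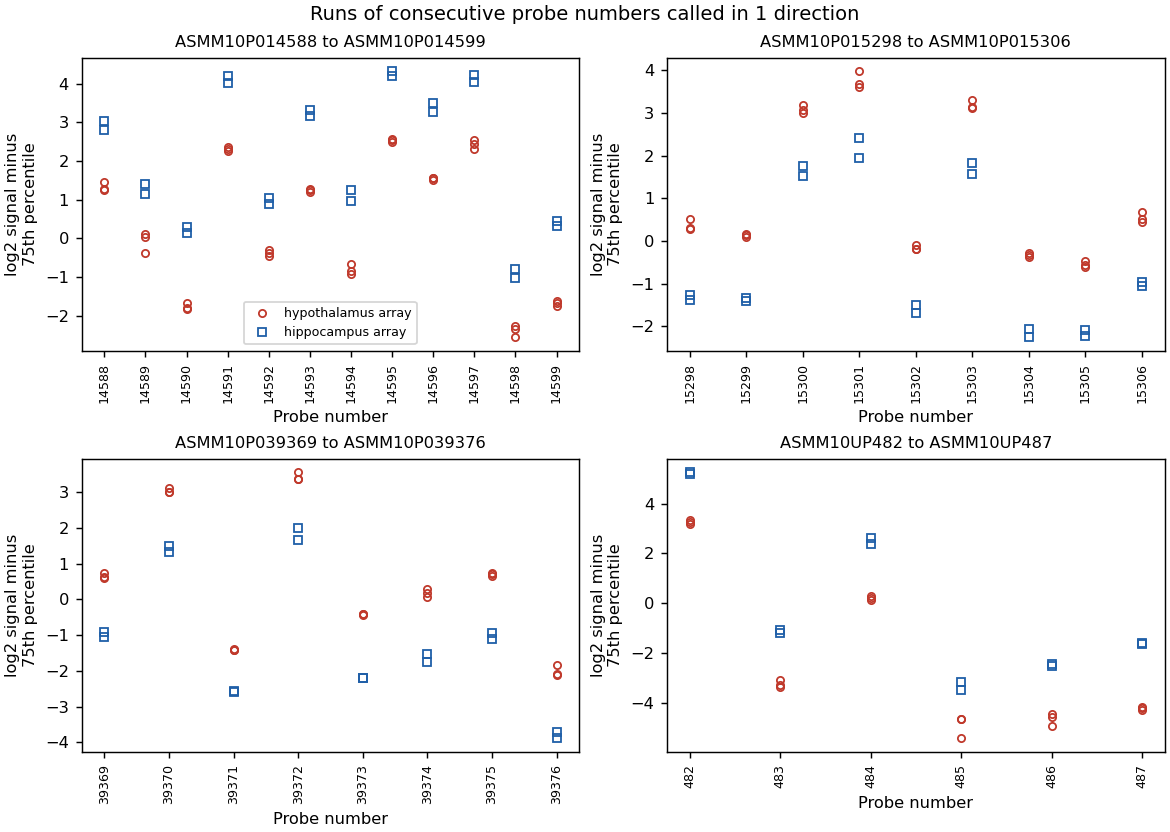
Level of each array (y axis, log2 signal minus 75th percentile) for the probes of 4 runs of consecutive design numbers (x axis). Within a run the arrays of one region lie above those of the other at every probe, by similar amounts, although the levels themselves differ by several log2 units.

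In the ASMM10UP class the longest run was ASMM10UP482 to ASMM10UP487, 6 probes higher in the hippocampus. The plot of runs shows it with the 3 longest of the other class. ASMM10UP487 had the largest difference, with -1.61 and -1.64 in the hippocampus against -4.21, -4.28 and -4.18 in the hypothalamus (-2.60, SE 0.10, limma adjusted p 3.1e-06). ASMM10UP485 was the least certain, at -3.16 and -3.49 against -4.67, -5.43 and -4.66 (-1.60, SE 0.34, adjusted p 0.0145). The run ASMM10P033549 to ASMM10P033553, 5 probes higher in the hypothalamus by 1.06 to 2.38, had no single order of regions: the hypothalamus was highest in 3 of its probes, and the cerebellum was highest in ASMM10P033552 (3.49 against 2.82) and in ASMM10P033553 (-3.42 against -3.93).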

How the data were processed

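Arrays were read in 1 colour. Spots were extracted by the authors with Agilent Feature Extraction 11.0.1.1, per the submitters' processing notes. The deposited scanner files hold, for every spot, an intensity called the processed signal, from which background and a spatial trend were removed, per the file headers. A deposited table of log2 values, with column medians of 8.48 to 8.49, served as an alternative. Its normalization step was not stated in labels or headers. The processed signal was taken to log2 and the 75th percentile of its scan subtracted. Outlier spots, control spots and negative probes were omitted, and copies of a probe were averaged. Tested were probes well above background on every scan of at least 1 of the 4 regions.

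R 4.3.3 with limma 3.58.1 (lmFit, eBayes) fitted 1 mean per region and a shared spread over 10 arrays, after hippocampus scans 1 and 3, and likewise cerebellum scans 1 and 3, were averaged as near-identical. Calls needed a Benjamini-Hochberg adjusted p under 0.05 and at least 2-fold. In data simulated for this comparison over 56573 probes, 64 of 100 probes changed by 1.5 log2 units and 81 of 100 changed by 3 units were recovered, with 4 unchanged probes called. The simulated arrays varied independently, without shared scan-time deviations or a lowest signal, and far fewer probes changed than were called here. The simulated numbers therefore do not give the error rates of the calls. Named probes were, per direction, the 8 array-design probes of largest difference above background on all 6 scans, the 4 largest bounds, the 4 lincRNA names of largest difference and the smallest call, besides all 15 named genes. Runs of numbers were described outside that rule, after their values were seen. Members and lists were chosen with earlier results of these data known. Probe sequences and the genes of the design numbers were not used here. The 17 alternatives are given in the closing section.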

Additional observations from a re-analysis of the deposited data

Results flagged for a closer look

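Among 15 probes whose names mark them as negative, which were left out of the comparison, 2 stood well above background on each of the 6 scans. MM9NEGATIVE016 stood at -4.36, -4.46 and -4.26 on hypothalamus arrays 1, 2 and 3, with a mean of -4.36, and at -4.45 and -4.82 on the hippocampus arrays. MM9NEGATIVE017 stood at -3.59, -3.49 and -3.47 in the hypothalamus, with a mean of -3.52, and at -3.48 and -3.46 in the hippocampus. These levels lie within the dimmer part of the tested probes.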

How the results depend on the processing

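Of 49 named genes and probes, 31 kept their direction and their side of the threshold under all of the 17 alternatives in which they could be fitted. In every alternative, 0 probes were called in the opposite direction. Without 1 array (a lone hippocampus array is assumed to vary like the other regions), 1762 to 2533 probes were called higher in the hypothalamus and 1325 to 1578 higher in the hippocampus. Probes above background on all hippocampus scans and no hypothalamus scan numbered 67 to 117 without 1 scan, the reverse set 425 to 520. Leaving out hippocampus scan 1 or 3 keeps the other, nearly identical scan, so these ranges do not cover the loss of hippocampus array 1. Under normexp, 1388 probes were called higher in the hypothalamus, with 2 and 4 lincRNA names and 15 and 22 ASMM10UP probes, and 2488 of its 2508 calls were shared with the calls reported, which is 68.7% of the 3620.

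The signs that changed were of genes that did not pass the test. With quantile normalization Ppia stood at -0.0527 and Gapdh at -0.1392, and with tile medians subtracted Gapdh stood at -0.0007. With all 12 scans counted as arrays Ldhal6b stood at 0.022. Without 1 array, Gapdh ran from -0.0431 to 0.1237, Gk from -0.0176 to 0.3422, Tbp from -0.0566 to 0.2279 and Ldhal6b from -0.3914 to 0.2287. The cause was not tested.

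Replicate numbers follow scan times, apart from the repeat scans. Deviations of same-numbered arrays from their region means correlated at 0.593 and 0.733 between the regions compared, and at 0.0932 to 0.747 over 13 pairs of all regions. All 13 were above 0 and 12 were above 0.1, whereas 19 of 24 pairs of unlike number were below 0. Deviations within a region sum to 0, so the pairs are not independent. Same-numbered arrays thus tended to deviate together. The limit of 0.1 was set for each pair of all regions. The pair below it was array 2 of the olfactory bulb with array 2 of the cerebellum (0.0932), neither of them a region compared here. By that rule the fit without the block was kept, although both pairs of the regions compared met the limit. Its p-values leave this pairing out. At any fold, 16.9% of tested probes passed limma's adjusted p without the block and 32.6% with it. With the replicate block, 2225 probes were called higher in the hypothalamus and 1553 in the hippocampus, and 3501 of the 3620 calls were shared. Where a probe was not above background in 1 region, only the bound can be read, and the number of arrays limits the precision.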

Other observations

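Control probes to the ends of 2 transcripts were read on the same arrays. The 3′ probe of Gapdh exceeded its 5′ probe by 1.26, 1.06 and 1.14 log2 units on hypothalamus arrays 1, 2 and 3 and by 1.26 and 1.06 on hippocampus arrays 1 and 2. That of Pgk1, a glycolytic enzyme gene, exceeded its 5′ probe by 7.04, 7.29 and 7.31 and by 7.05 and 7.29. These values differed by replicate number and hardly by region, with means of 1.15 ± 0.10 (SD, n = 3) and 1.16 ± 0.14 (SD, n = 2) for Gapdh. Over 128 tiles of neighbouring spots, the median difference between the regions ran from -0.31 to 0.35.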
